A study of Mus musculus with 2 samples.

Results

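Transcripts of 4 caspases (Casp2, Casp6, Casp8 and Casp9) and of 4 proteins that act with them (Apaf1, Xiap, Diablo and Cycs) were compared between Baf53b- and Baf53a-expressing ES cells. These 8 genes were picked by name as the caspases and the apoptosome, and their probes were found through the RefSeq accession that the array files give for each probe. All 8 were found, with 11 probes, among 16608 genes measured on both arrays. Each of the 11 probes was well above background on both arrays. None of the 8 differed by 2-fold, a size that 0.193% of all genes reached, so that count is near the background. The differences, given as Baf53b- minus Baf53a-expressing cells throughout, ran from -0.06 for Casp8 to 0.16 for Casp6 on the log2 scale.

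Both groups came from 1 clone of E14-derived mouse ES cells, the Baf53a cKO line, in which CRISPR/Cas9 had mutated both alleles of Baf53a and a Tet-repressible, CRISPR-resistant Baf53a stood in for them. The cells were transfected with a vector for Myc-tagged Baf53a or for Myc-tagged Baf53b, a homologue of Baf53a. After 48 h they were given 1 μg/mL Tet, which shuts the inducible Baf53a off, for 6 days in medium with LIF. Each condition was represented by 1 array of 1 RNA sample. The differences below are therefore unreplicated and untested, and an effect of the exchanged subunit cannot be told apart from a difference between these cultures. Cells with an empty vector and cells without Tet were not analysed here.

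Caspases are proteases that cut their substrates after aspartate and are made as inactive precursors. In the mitochondrial route of apoptosis, cytochrome c (Cycs) leaves the mitochondria and binds Apaf1, which assembles into the apoptosome and activates the initiator Casp9; this in turn activates executioner caspases. Casp8 is the initiator downstream of death receptors. Xiap blocks Casp9 and some of the executioners, and Diablo (also Smac) leaves the mitochondria and relieves that block. All of these steps act on proteins, and the arrays measured transcripts only, so neither cleavage of caspases nor release of cytochrome c was measured. The comparison bears on the question of whether ES cells that rely on Baf53b carry transcripts of this machinery at the levels of cells that rely on Baf53a.

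Across the series, each array carried 43020 spots of 39429 gene probes, no gene spot was saturated, and 29247 probes were well above background on both arrays. The 75th percentile of the signal, which was set to 0 on the log2 scale, was 1161 for the Baf53a sample and 1128 for the Baf53b sample. The labels were checked on the exchanged genes. Actl6b, the gene for Baf53b, had a processed signal of 119 in Baf53b-expressing cells. It had 3.40 in Baf53a-expressing cells, where its probe failed the background flag, so the former was at least 14.5-fold higher. Actl6a, the gene for Baf53a, differed by -0.04 on the log2 scale, with signals of 3806 in Baf53a- and 3600 in Baf53b-expressing cells. Whether its probe reads transcripts of the mutated alleles, of the vector or of both is not known. The value of Actl6a therefore gave no check of the labels, which rests on Actl6b. All 6 transcripts fixed as markers of undifferentiated ES cells, among them Pou5f1 (Oct3/4) with signals of 27167 and 24042, were well above background on both arrays.

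The start regions of the genes were looked at for what they share beyond their names. RefSeq (GRCm38.p6) gave 10 windows, each from 250 bases before to 50 after a transcript start, for the 8 genes. The GC box, searched as GGGCGG on both strands, was found in 8 of the 10 windows and for 7 of the 8 genes, against 35.7% of all 32851 windows and 38.2% of all 27025 genes in that table. The TATA box, searched as TATAAA on both strands, was found in 1 window, of Xiap, against 13.6% of all windows. The count of CpG dinucleotides was 46 in the window of Apaf1, 42 in that of Diablo, 32 in that of Cycs, 28 in that of Casp9, 26 in that of Casp2 and 16 in that of Casp6, against a median of 7 over all windows. The window of Casp8 held 5, and the 3 windows of Xiap held 2, 5 and 20. The shares and the median cover all genes of that table, expressed in these cells or not, and were not computed for expressed genes alone. They therefore do not show whether the 8 genes differ from other expressed genes. A match of letters is a description and no evidence that a factor binds there. The windows of Casp6 and Apaf1, the genes with the highest differences, and of Casp8, the gene with the lowest difference and the only one without a GC box, are shown with the matches in capitals. They lie at chr3:129901165-129901464 on the plus strand, at chr10:91082694-91082993 on the minus strand and at chr1:58802252-58802551 on the plus strand.
Casp6: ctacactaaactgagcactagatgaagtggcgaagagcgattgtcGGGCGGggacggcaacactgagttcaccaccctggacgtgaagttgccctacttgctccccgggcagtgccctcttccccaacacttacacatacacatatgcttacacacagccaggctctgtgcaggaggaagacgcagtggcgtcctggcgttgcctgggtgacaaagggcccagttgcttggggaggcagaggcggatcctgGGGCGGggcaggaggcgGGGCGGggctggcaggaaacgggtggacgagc
Apaf1: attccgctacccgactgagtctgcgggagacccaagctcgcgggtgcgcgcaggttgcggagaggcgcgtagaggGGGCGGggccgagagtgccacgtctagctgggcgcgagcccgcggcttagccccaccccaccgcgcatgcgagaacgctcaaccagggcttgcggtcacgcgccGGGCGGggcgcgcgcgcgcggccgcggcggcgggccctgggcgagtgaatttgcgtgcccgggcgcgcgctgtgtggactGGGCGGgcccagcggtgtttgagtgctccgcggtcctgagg
Casp8: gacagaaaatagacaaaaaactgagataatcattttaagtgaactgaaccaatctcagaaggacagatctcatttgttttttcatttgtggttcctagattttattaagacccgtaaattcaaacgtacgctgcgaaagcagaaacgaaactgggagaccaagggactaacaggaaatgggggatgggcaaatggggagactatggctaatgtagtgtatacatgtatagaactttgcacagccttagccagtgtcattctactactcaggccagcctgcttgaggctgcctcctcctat

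The initiator caspases were examined first. Casp9, which the apoptosome activates, had a processed signal of 935 in Baf53a-expressing cells and of 948 in Baf53b-expressing cells. After scaling this was a log2 difference of 0.06 (4.39% higher in Baf53b-expressing cells). Every probe of the 8 genes was printed as a single spot, so the error of a difference was taken from elsewhere. The error that the extraction software gives for each signal came to 0.20 for the Casp9 difference, and the SD of a difference between 2 single spots, taken from probes of like brightness with at least 5 spots, was 0.07. The difference of Casp9 was smaller than both. Casp8 had signals of 319 and 296, with the Baf53a sample first here and in what follows, and a log2 difference of -0.06. That too was smaller than the spot SD of 0.08 for its brightness. Casp2, an initiator-like caspase that the PIDDosome activates, had signals of 1986 and 2029. Its log2 difference of 0.0726 (5.16% higher in Baf53b-expressing cells) exceeded the spot SD of 0.0664 by a small margin, and was below the software error of 0.20.

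Casp6 was the only executioner caspase among the 8 genes, and with the main scaling it gave the largest difference. With the arrays centred on the median, Casp8 was farther from 0, at -0.12 against 0.11 for Casp6. The signals of Casp6 were 791 and 860. The log2 difference of 0.16, or 11.9% higher in Baf53b-expressing cells, was more than the spot SD of 0.07 and less than the software error of 0.20. Of the 5849 probes of like brightness, 15.9% lay at least as far from 0, so a difference of this size was common on these arrays.

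**Figure D1:**
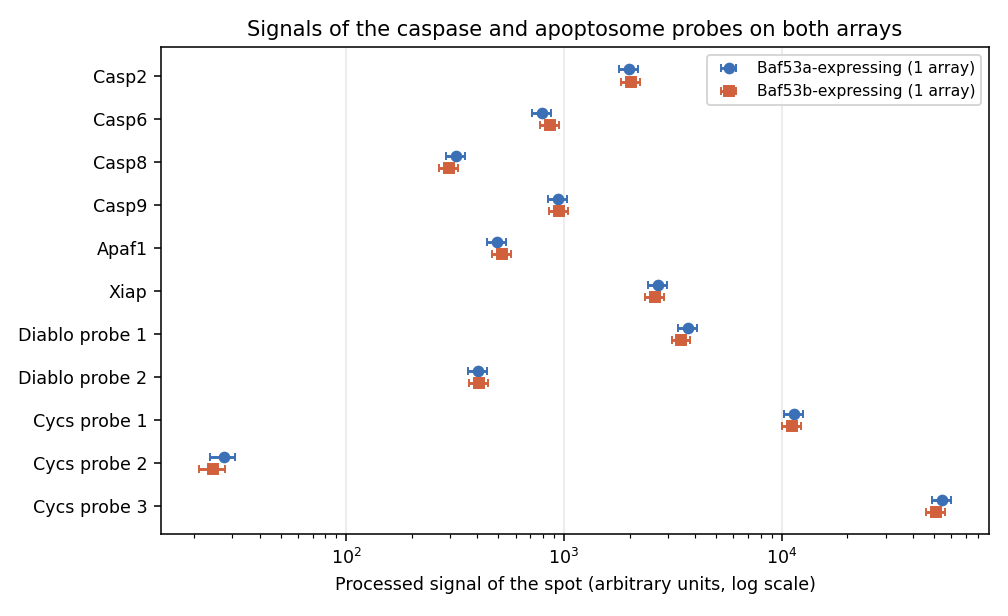
Processed signal (log axis, arbitrary units) of each of the 11 probes in Baf53a-expressing (circles) and Baf53b-expressing cells (squares), 1 array each, with the error given by the extraction software as bars. Each symbol lies within the error bar of its partner, and levels of different probes are not comparable.

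Apaf1, the scaffold of the apoptosome, had signals of 490.2 and 519.9. Its log2 difference of 0.13 (9.17% higher in Baf53b-expressing cells) was the second in size, above the spot SD of 0.08 and below the software error of 0.20. Among the probes of like brightness, 36.2% differed by at least as much. Measured from 0, Apaf1, Casp2 and Casp6 were the genes of the 8 with a probe whose difference exceeded the spot SD, and each was higher in the Baf53b sample. Measured from the median of all probes of like brightness, Casp9, Casp8 and Cycs probe 1 exceeded it as well, and Casp8 was lower in the Baf53b sample. This SD holds the noise between spots of 1 array and leaves out that of culture, labelling and hybridisation.

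Cycs, the cytochrome c of somatic cells, was read by 3 probes. The brightest, called probe 3 in the plots, had signals of 54733 and 51318, with a log2 difference of -0.05. Probe 1 had signals of 11342 and 11100.3 and a difference of 0.01. Probe 2 was dim, with signals of 27.3 and 24.4, and gave -0.12 with a software error of 0.28. No probe of Cycs differed by more than its software error or its spot SD. The mean over the 3 probes was -0.05, and -0.02 when the dim probe was left out by a stricter filter on signal.

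The regulators of the caspases were near 0 with the main scaling. Xiap, which binds and blocks caspases, had signals of 2702 and 2616 and a log2 difference of -0.0046 after scaling. Among the probes of like brightness, 96.9% lay farther from 0 than that or as far. Diablo, the antagonist of Xiap, was read by 2 probes. Probe 1 had signals of 3713 and 3463 and a difference of -0.06, and probe 2 had signals of 404 and 408 and a difference of 0.06. The probes of Diablo thus lay on both sides of 0, each about as far from it as Casp9, and their mean was -0.00068. Their distance of 0.12 was close to the median distance of 0.11 between the outermost probes of the 4212 genes with more than 1 probe measured.

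**Figure D2:**
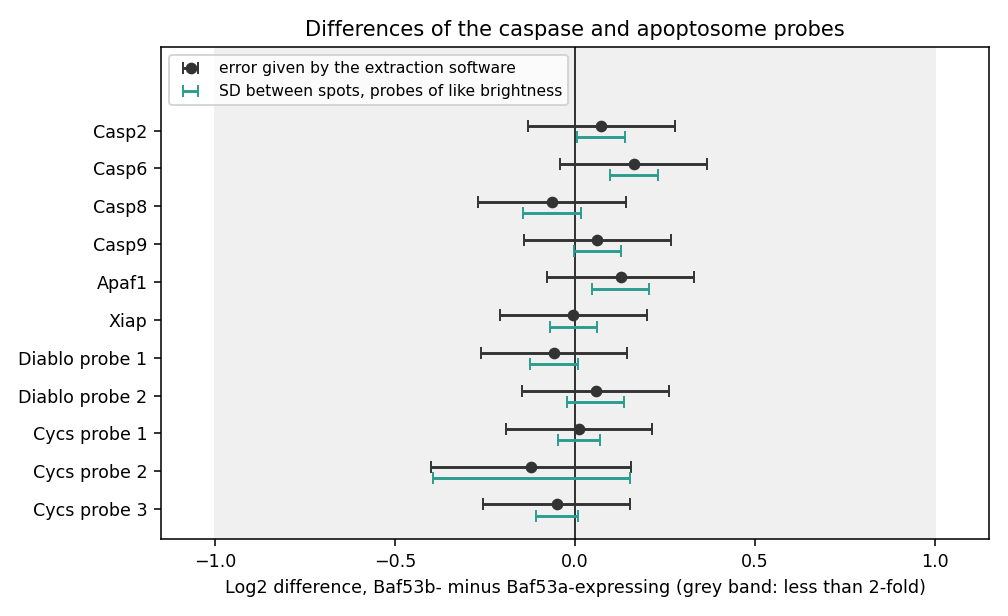
Log2 difference (Baf53b- minus Baf53a-expressing cells) of each of the 11 probes, with the error given by the extraction software (upper bars) and the SD of a difference between 2 spots in probes of like brightness (lower bars); the grey band spans less than 2-fold. All 11 upper bars cross 0, and the lower bars of Casp2, Casp6 and Apaf1 do not.

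As a group, the 8 genes split evenly, with 4 above and 4 below 0, and 6 of the 11 probes lay above 0 and 5 below. The median log2 difference of the 8 genes was 0.03, beside -0.0032 over all 16608 genes. No gene of the 8 was at least 2-fold apart, where 0.193% of all genes were (17 higher and 15 lower). With so rare a call, a count of 0 of 8 is near the background and is no result about these genes. A difference of at least 0.2 in either direction, a size chosen after the values were seen because it is near the software error, was reached by 19.5% of all genes and by 0 of the 8. The median size of the difference, without its sign, was 0.06 for the 8 genes and 0.09 for all genes.
Spread depended on brightness, and the 8 genes are mostly bright. Of their 11 probes, 2 lay in the brightest of 5 groups of probes of equal size, 5 in the next, 3 in the middle group, none in the group after that and 1, the dim Cycs probe, in the dimmest. The SD of the differences over all probes was 0.11, 0.12, 0.15, 0.21 and 0.32 in these groups, in the same order, and the probes of the 8 genes stayed inside those spreads except for Casp6, at 0.16 against 0.12. The median difference over all probes also moved with brightness, being 0.10 for the dimmest group and -0.06 for the brightest one. Relative to the median of its own group, the dim Cycs probe stood farthest away, at -0.22, which was within its spot SD of 0.27. Casp6 stood at 0.18, Apaf1 at 0.11, Casp2 at 0.09, Casp9 at 0.08 and Casp8 at -0.08. Of the other Cycs probes, probe 1 stood at 0.07 and probe 3 at 0.01, while Xiap stood at 0.01 and the Diablo probes at -0.04 and 0.04.

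**Figure D3:**
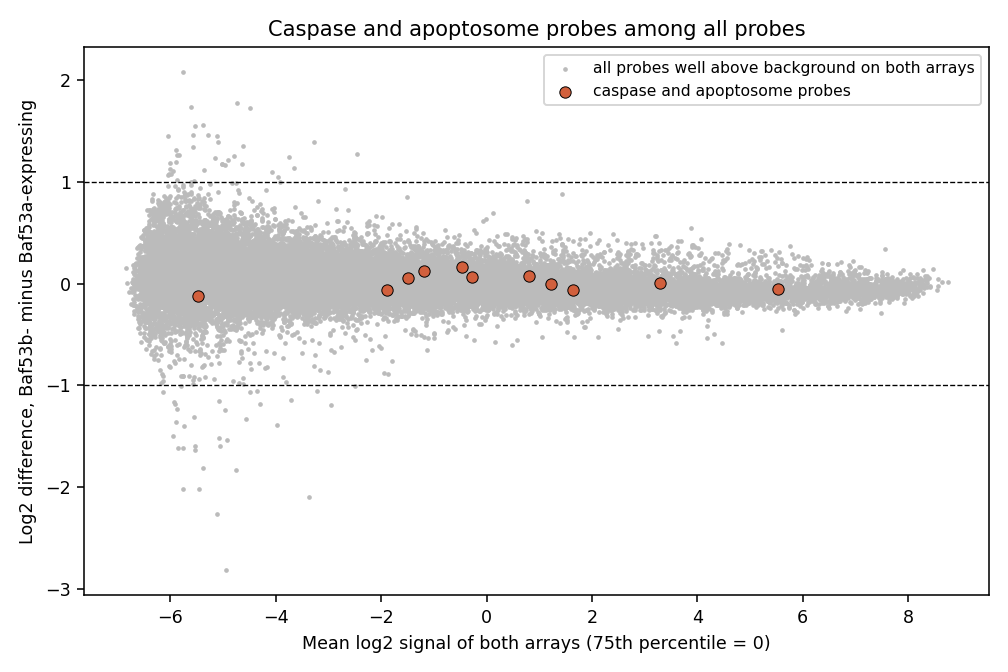
Log2 difference against the mean log2 signal of both arrays for the 29247 probes well above background on both (grey) and the 11 probes of the 8 genes (large circles); dashed lines mark 2-fold. The large circles lie between -0.12 and 0.16, within the grey cloud.

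The directions were then compared between ways of scaling and filtering. Casp6, Apaf1, Casp2 and Casp9 were higher and Casp8 was lower in Baf53b-expressing cells in each setting that gave them a value. Each of them has 1 probe, so filters, detection flags and choice of probe could only return the main value or drop the gene. Keeping outlier spots or taking the authors' values hardly moved them. A change of sign was thus possible only with quantile normalization, cyclic loess, median centring or normexp, all on the same arrays. Casp6 ran from 0.11 to 0.17 over the alternatives, Apaf1 from 0.08 to 0.13 and Casp8 from -0.12 to -0.05. Casp2 fell to 0.02 with median centring, and Casp9 to 0.01 there and to 0.0041 with normexp, so their values came close to 0. The signs of Xiap, Diablo and Cycs were not settled: Xiap ran from -0.06 with the arrays centred on the median to 0.05 under normexp, Diablo from -0.06 with its brightest probe alone to 0.02 under normexp, and Cycs from -0.11 with median centring to 0.0006 under normexp. Normexp is a background correction applied to the median pixel signal. The number of genes higher in Baf53b-expressing cells was therefore 6 with quantile normalization, 5 with cyclic loess and 7 with normexp, in place of 4. With median centring, which moved the median of all genes to -0.05, the median of the 8 genes was -0.02 in place of 0.03. No gene of the 8 reached a difference of 0.2 in any of the 10 alternatives.

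**Figure D4:**
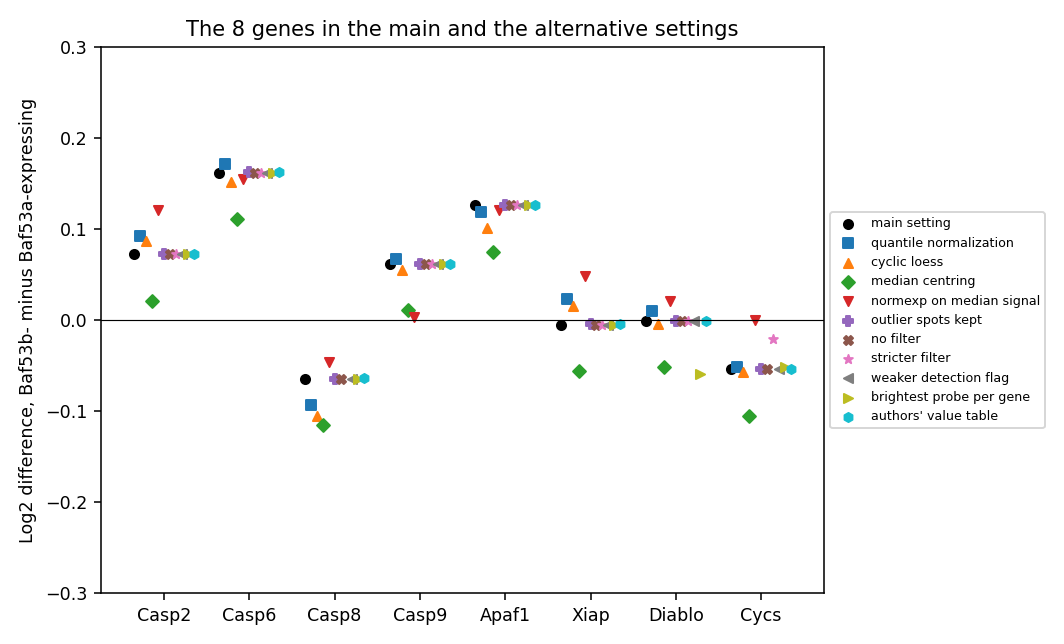
Log2 difference (Baf53b- minus Baf53a-expressing cells) of each of the 8 genes in the main setting (black circles) and in 10 alternative settings (other symbols; Casp8 has no value under the stricter filter). Casp2, Casp6, Casp9 and Apaf1 stay above 0 and Casp8 below it, while Xiap, Diablo and Cycs are found on both sides.

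The other genes of apoptosis were taken from 7 lists of 49 genes, all of which were measured on both arrays. None of the 49 was at least 2-fold apart, near the 0.193% of all genes, while 20 lay above and 29 below 0, and their median difference was -0.02. The number above 0 moved with the scaling, from 15 with median centring to 26 with normexp, so the splits of the lists that follow are those of the main scaling alone. A difference of at least 0.2 was reached by Casp12, Casp14 and Septin4 upward and by Trp53 downward, 4 of 49 beside 19.5% of all genes.
Among the 6 other caspases, 4 were higher and 2 lower. Casp12, a caspase of the inflammatory group, gave the highest value of all lists, 0.58, from signals of 29.3 and 42.5 in the dimmest group of probes, where 7.93% of the probes lay at least as far from 0 and the median was 0.10. Casp14, known from the skin, gave 0.28 from signals of 103 and 122. Among the probes of like brightness, 15.9% lay at least as far from 0, and the median was 0.05. Casp1, which activates interleukin precursors, gave the lowest value, -0.15, also from a dim probe, with signals of 30.8 and 26.9 and a spot SD of 0.27. In its brightness group 59.6% of the probes lay at least as far from 0, and Casp1 ran from -0.26 with quantile normalization to 0.02 under normexp, with the sign turned.

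Adaptors and receptors that feed into Casp8 and Casp2 differed little. Of 10 genes, 4 were higher and 6 lower, from -0.11 for Fadd, the adaptor that recruits Casp8, to 0.13 for Pidd1, which helps to activate Casp2. Of the 7 other inhibitors of apoptosis and their regulators, 4 were higher and 3 lower. Septin4, whose splice form ARTS binds Xiap, was highest at 0.37. One of its probes had signals of 150.2 and 178 and the other 52.7 and 69.7. Among the probes of like brightness, 15.2% lay at least as far from 0 as the former and 4.03% as the latter. The median there was 0.05, and Septin4 stood at 0.25 under normexp. The lowest was Xaf1, an antagonist of Xiap, at -0.09.
Of the 6 other mitochondrial proteins, 1 was higher and 5 lower. Hccs, the enzyme that attaches haem to cytochrome c, gave 0.11, and Cyct, the cytochrome c of the testis, gave -0.16. The probes of this list lay in the brightest group or the next, where the median over all probes was -0.06 and -0.02. Measured from those medians, Hccs stood at 0.18, Aifm1 and Endog at -0.02, Cyc1 at -0.09 and Cyct at -0.14. The Htra2 probes stood at 0.01 and -0.01. Of the 5 apoptosome regulators, 1 was higher and 4 lower, from -0.16 for Anp32a, which promotes apoptosome activity, to 0.02 for Hspa8, a chaperone. The probes of Hspa8 disagreed in sign, and with its brightest probe alone it stood at -0.06 and none of the 5 was higher. With quantile normalization 3 of the 5 were higher, with cyclic loess 2, with normexp 1 and with median centring 0. The 9 caspase substrates, of which 5 were higher and 4 lower, ran from -0.07 for Pak2, a kinase that caspases activate by cleavage, to 0.15 for Dffb, the nuclease that cuts DNA in apoptosis.

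**Figure D5:**
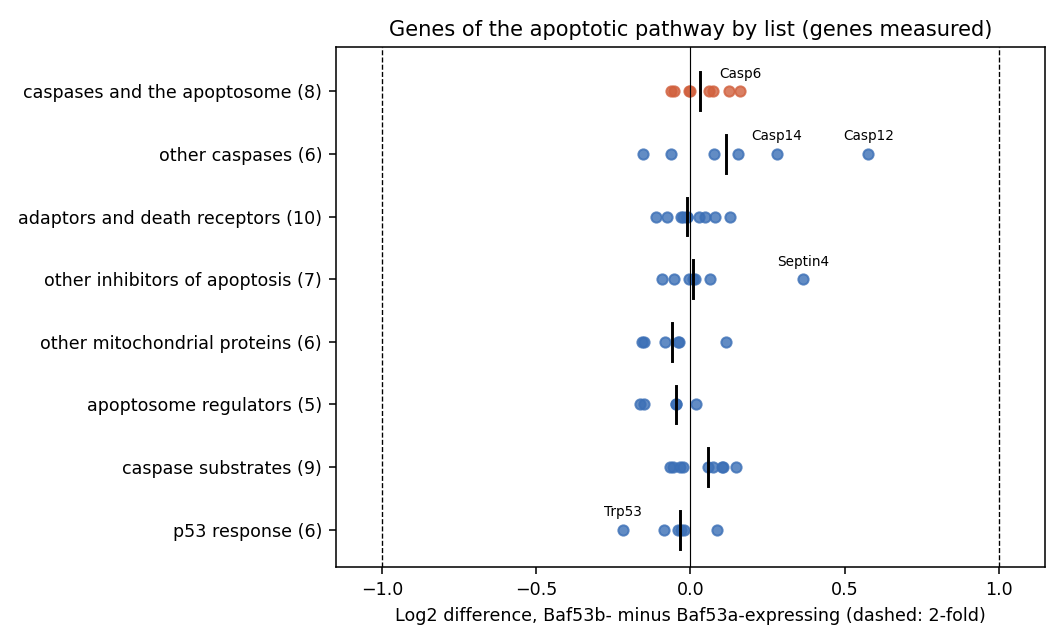
Log2 difference (Baf53b- minus Baf53a-expressing cells) of each gene of the 8 (top row) and of the 7 lists of other apoptosis genes, with the number of genes measured in brackets; black bars are medians and dashed lines mark 2-fold. No point reaches 2-fold, and Casp12, at 0.58, lies farthest from 0.

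The 6 genes of the p53 response, of which 1 was higher and 5 lower, included direct links to the apoptosome, since p53 is known to activate Apaf1 and the genes for Bax and Puma (Bbc3). The split was not stable, with 3 higher under quantile normalization and cyclic loess, and 1 higher under median centring and normexp. Trp53 itself was the lowest of all lists at -0.22, with signals of 1831 and 1528 and a software error of 0.20. Among the probes of like brightness, 7.27% differed by at least as much. In the alternatives Trp53 ran from -0.27 with median centring to -0.17 under normexp. Mdm2, the ubiquitin ligase that p53 induces, was the highest of this list at 0.09. Bax differed by -0.04 and Bbc3 by -0.09. Both probes lay in the brightest group, where the median over all probes was -0.06. Measured from that median, Bax stood at 0.02 and Bbc3 at -0.02. The other genes of this list, Cdkn1a (p21) and Pmaip1, differed by -0.03 and -0.02 with the main scaling.
Markers of other cell types were read beside these values. All 4 primitive endoderm genes were well above background on both arrays. They gave positive differences, from 0.21 for Gata6 (signals of 861 and 966) to 0.40 for Dab2 (108 and 138). With the main scaling each reached 0.2, as did 19.5% of all genes, while Gata6 stood at 0.16 with median centring. Among the probes of like brightness, 8.55% lay at least as far from 0 as Gata6, and 5.61% as Dab2. Of the 6 markers of undifferentiated ES cells, 1 was higher and 5 lower, from -0.15 for Esrrb to 0.07 for Nr0b1. Except for a dim probe of Nanog, their probes lay in the brightest group, where the median over all probes was -0.06. Of the 5 fibroblast genes, 3 were higher and 1 lower, and Col3a1 passed the background flag in the Baf53b sample alone. Of 3 blood cell genes only Ptprc was matched to a probe by accession, with a difference of 0.19. Whether a shift in cell types contributed to the values of Casp6, Apaf1, Casp12 or Septin4 was not tested, and in bulk RNA more cells that carry a transcript cannot be told apart from more transcript per cell.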

How the data were processed

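RNA of 1 culture per condition was hybridised to 1-colour (Cy3) Agilent mouse arrays. The authors extracted the scans with Feature Extraction 11.0.1.1 and deposited, per spot, the intensity after background subtraction and spatial detrending, its error and flags per spot (other columns), without normalization between arrays. They also deposited a table whose values proved to be a ratio, the same signals divided by 1160 and 1126 (all 30479 probes compared agreed within 0.1%). Here control and outlier spots were dropped, the mean log2 signal of the remaining spots was taken per probe, and each array was scaled to its 75th percentile. Probes with the flag for signal well above background in 50% of their spots or more were called so. Probes of a gene were averaged. Names came from RefSeq accessions (GRCm38.p6 table, used for names, while the array design was annotated on mm9), so no gene coordinates are given except those of the RefSeq windows.

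For the bound on Actl6b, the dim side was taken as its own value or the lowest flagged signal of that array, whichever was higher. Spot noise came from probes with at least 5 usable spots, in 5 groups of equal size by mean signal. The number of arrays limits the precision.

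The 8 genes and all lists were chosen with earlier results of these data known. Genes named from a list are those with the highest and lowest difference in it. Casp14, Bax, Bbc3, Cdkn1a, Pmaip1, Aifm1, Endog, Htra2, Cyc1 and the marker Pou5f1 were added after their values were seen. Most genes of the lists were counted without their values being printed. Alternatives were other scalings, filters, flags, sources and normexp (offset 50, on the median spot signal). Python 3.11.15, numpy 2.4.6, pandas 2.3.3, R 4.3.3 and limma 3.58.1 were used, and the steps were tested on simulated data.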

Additional observations from a re-analysis of the deposited data

How the results depend on the processing

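No paired analysis was possible because each condition had a single array, and no replicate could be left out. The count of the 8 genes at least 2-fold apart stayed at 0 in all 10 alternatives, as did that of the 49 other apoptosis genes. The median of the 8 genes, 0.03, was -0.02 with median centring and 0.06 with the stricter filter, which lacks Casp8. The share of all genes at least 2-fold apart depended on which probes entered. It was 2.53% without a filter on dim probes (3.39% of probes), 1.82% with a weaker detection flag (2.24% of probes) and 0 with the stricter filter (0 of probes), where fewer dim probes enter. Under normexp it was 0% of genes and 0.00684% of probes, and the offset draws dim signals together. Casp8 had no value under the stricter filter. Of the values of single genes in the alternatives, 275 moved by less than the spot SD for their brightness and 7 by more, none of them among the 8 genes. The cause was not tested. Filters and choice of probe leave a gene with 1 probe unchanged, so many of the 275 could not move. The signal over background limits what the dim Cycs, Casp1 and Casp12 probes can show.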
